A study of Mus musculus with 15 samples.

Results

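The genes described here are 10 that make or remove reactive oxygen species: *Sod1*, *Sod2* and *Sod3*, the oxidase genes *Nox1*, *Nox4*, *Cyba* and *Cybb*, and the peroxide-removing enzymes *Cat*, *Gpx1* and *Gpx3*. They were read from 14 probes whose annotation on the array is a RefSeq transcript of 1 of these genes, out of 23462 genes so named, and 6 of the 10 were bright enough to be tested. Expression was measured on 15 single-colour Agilent mouse arrays in Mouse Embryonic Fibroblasts (MEFs), here the established line Balb/c/3T3 clone A31, in 5 groups of 3 arrays. The groups were untreated control MEFs and MEFs given 10 ng/ml of TNFα, 5 ng/ml of TGFß1, 1 ng/ml of IL-1β, or 20 ng/ml of IL-6 together with 25 ng/ml of its soluble receptor sIL-6Rα. The study set TNFα as a proinflammatory and TGFß1 as a profibrotic stimulus. The study's results give 24 h for the arrays of the control, TNFα and TGFß1 groups, and for the IL-1β and IL-6 groups the time was not given in the sources used here. All groups share 1 clonal, immortal line, so the arrays of a group repeat the culture and not the animal. Each array is called by its group and the number that opens its label.

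NADPH oxidases are membrane enzymes that pass electrons from NADPH to oxygen and so make superoxide or, for NOX4, mostly hydrogen peroxide. Superoxide dismutases turn superoxide into hydrogen peroxide in the cytosol (SOD1), in mitochondria (SOD2) and outside the cell (SOD3), and catalase and the glutathione peroxidases then reduce the peroxide. In fibroblasts, NOX4 is known as an oxidase that TGFß1 can induce, and *Sod2* as a gene that TNFα and IL-1β can induce through NF-κB.

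In these MEFs, *Sod2* was the only 1 of the 6 tested genes called higher than control, 2.88-fold with TNFα and 1.69-fold with IL-1β. *Cat* was called lower with TNFα, at 1.60-fold below control. The *Sod2* call with TNFα held without any single array, whereas its IL-1β call and the *Cat* call were lost without some single arrays. None of the 6 tested genes was called with TGFß1, where 7.17% of all tested probes were called higher and 10.8% lower. None was called with IL-6 either, where 0.0648% of all tested probes were called higher and 0% lower. *Sod3* was 3.43-fold lower with TNFα, in a comparison whose call depended on whether the runs of label numbers were taken into account. *Cyba*, *Cybb*, *Nox4* and *Gpx3* were not well above background on any array, those of TGFß1 included.

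The promoters of *Sod2* and *Cat*, the genes that rose and fell, are shown because both changed with the same treatment. Each is the 250 bases before the gene's start, on the gene's strand, from RefSeq (GRCm38.p6). Capitals mark the letters of a searched motif on either strand: GGANTTTCC for NF-κB, TGANTCA for AP-1, TTCNNNGAA for STAT, TGACNNNGC for the antioxidant response element, GTCTAGAC for SMAD and GGGCGG for Sp1. *Sod2* lies on the plus strand, with this stretch at chr17:13007589-13007838, and *Cat* on the minus strand, at chr2:103485154-103485403.
Sod2: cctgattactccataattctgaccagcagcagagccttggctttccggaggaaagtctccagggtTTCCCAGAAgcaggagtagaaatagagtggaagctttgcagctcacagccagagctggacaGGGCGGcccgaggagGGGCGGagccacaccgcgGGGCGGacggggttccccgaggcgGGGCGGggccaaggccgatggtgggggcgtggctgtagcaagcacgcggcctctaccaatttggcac
Cat: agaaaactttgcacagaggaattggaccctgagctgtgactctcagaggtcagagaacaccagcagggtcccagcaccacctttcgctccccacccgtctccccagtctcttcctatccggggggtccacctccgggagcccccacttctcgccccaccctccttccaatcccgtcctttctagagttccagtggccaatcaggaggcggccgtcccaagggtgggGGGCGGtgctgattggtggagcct
The *Sod2* stretch held the STAT letters 185 to 177 bases before the start and the Sp1 letters at 4 places, between 124 and 62 bases before it. The *Cat* stretch held the Sp1 letters once, 24 to 19 bases before the start. Among the 32851 mouse promoters of the same kind, 7.02% held the STAT letters and 32.74% the Sp1 letters. The NF-κB letters were in none of the 9 genes with an entry and in 1.065% of all promoters, and the SMAD letters were in none of the 9 and in 0.1674% of all. The AP-1 letters, held by 6.749% of all promoters, were in that of *Cybb*, and those of the antioxidant response element, held by 10.16%, in that of *Sod1*. *Sod1* also held the Sp1 letters at 4 overlapping or neighbouring places, *Nox4* held STAT and Sp1, *Cyba* Sp1 at 2 places and *Gpx3* Sp1 once, while *Nox1* and *Gpx1* held none of the 6. *Sod3* had no entry. These are matches of letters in a short window and say nothing on whether a factor binds. Only the letters given above were searched, so the lack of a match does not show that a site of that factor is absent.

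Levels are log2 of the processed signal minus the log2 of that array's 75th percentile, so 0 is the 75th percentile and a step of 1 is a doubling; they were compared between arrays for a probe and never between probes. The 75th percentile lay between 508 and 683 units of processed signal, 48.3% to 54.8% of probes were well above background, and no spot was saturated. Differences were tested with limma's moderated test in 1 fit of all 15 arrays, two-sided, over 29333 probes, and a gene was called at a Benjamini-Hochberg q-value under 0.05 and a fold-change of at least 1.5. With 3 arrays a group the number of arrays limits the precision, the 4 comparisons with control share the same 3 control arrays, and with bulk RNA fewer cells of a kind and less RNA per cell cannot be told apart. The arrays lay on 2 slides, slide 1 with control 1 and 11, TNFα 14, TGFß1 7, IL-1β 5 and 10 and IL-6 3 and 8, and slide 2 with the other 7. In the label numbers all 5 groups recur in steps of 5, which gives 3 runs (1 to 5, 6 to 10, 11 to 15). Once slide was removed, arrays of a run deviated together, so a fit with slide and run as blocks is given where it changed a call. All 9 fibroblast markers were well above background on all 15 arrays, while *Ptprc*, *Adgre1*, *Tyrobp*, *Lyz2* and *Aif1* of the 9 phagocyte and leukocyte markers were on none. *Csf1r*, *Cd68*, *Itgam* and the endothelial marker *Pecam1* were on all 15 by their brightest probe, none of these 4 was called with any treatment, and *Spi1* was on 2. The brighter *Itgam* probe split by slide, at 2.54 to 2.73 on slide 1 and 3.63 to 3.86 on slide 2. The other *Itgam* probe was well above background on no array. Of the other endothelial markers, *Cdh5*, *Kdr* and *Tek* were on none and *Vwf* on 1. Of the epithelial markers, *Cdh1* and *Krt5* were on none, *Epcam* and *Cldn4* on 1 each and *Krt14* on 3. Of the fibroblast markers 4 were called lower with TNFα (*Col1a1*, *Col1a2*, *Col3a1* and *Thy1*) and *Dcn* higher, with *Thy1* not called once slide was a block. With TGFß1 *Pdgfra* and *Dcn* were called lower and *Pdgfrb* and *Fn1* higher, and with slide and run as blocks *Col3a1* was also called lower with TGFß1 and *Dcn* higher with IL-1β. Their part in the results below was not tested.

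With TNFα, 1 of the 6 tested genes was called higher, *Sod2*, where 4.12% of all tested probes were, and 1 was called lower, *Cat*, where 6.06% were. *Sod2* encodes the manganese dismutase of the mitochondrial matrix. Its level was 1.37, 1.19 and 1.26 on control 1, 6 and 11. On TNFα 4, 9 and 14 it was 2.58, 2.92 and 2.89. Every TNFα array lay above every control array, by far more than the spread within either group (SD 0.09 and 0.19, n = 3 each). The difference was 1.53 ± 0.13 on the log2 scale (SE, limma, q-value 1.4e-05), a rise to 2.88-fold. It was 1.58 within slide 1 and 1.56 within slide 2, and 1.21, 1.73 and 1.64 within the 3 runs. Leaving out any array kept the call, with differences of 1.46 to 1.63. *Sod2* is also in the gene set that the study chose partly on the TNFα arrays used here, so its rise is not independent evidence of that choice.

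*Sod2* was also called with IL-1β, the only gene of the 10 called against control with more than 1 treatment. Its level was 1.79, 2.09 and 2.21 on IL-1β 5, 10 and 15, all above the highest control array and below the lowest TNFα array. The difference from control was 0.76 ± 0.13 (SE, limma, q-value 0.0342), 1.69-fold, where 0.245% of all tested probes were called higher with IL-1β and 0.00682% lower. The difference was the same with slide and run as blocks (limma, q-value 0.00994), and it was 0.41, 0.90 and 0.96 within the runs. The call was less firm than that of TNFα: it was lost when any of control 1, 6 and 11 and IL-1β 10 and 15 was left out, with q-values up to 0.152 (limma), and of 15 fits that each left out 1 array of any group it held in 2. With no filter on dim probes the q-value was 0.104 (limma). Without 1 array of control or IL-1β the difference ranged from 0.67 to 0.88.

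*Sod2* differed between the cytokines as well. On TGFß1 2, 7 and 12 its level was 1.45, 1.61 and 1.52, above the highest control array but by a mean of 0.25 (95% interval -0.03 to 0.54, limma q-value 0.178). On IL-6 3, 8 and 13 it was 1.33, 1.33 and 1.46, overlapping control, with a difference of 0.10 (-0.18 to 0.38, limma q-value 1). In the order of group means, TNFα lay highest, then IL-1β, TGFß1, IL-6 and control. TNFα exceeded TGFß1 by 1.27 (limma, q-value 2.74e-05), and IL-1β lay 0.77 below TNFα (a difference of -0.77, limma, q-value 0.0044), so those steps passed the test. IL-1β exceeded TGFß1 by 0.50 with a q-value of 0.0145 (limma), which is a fold-change of 1.42 and under the threshold of 1.5. IL-1β exceeded IL-6 by 0.66 (1.58-fold, limma q-value 0.0548), which was called once slide was a block (q-value 0.0357, limma) or slide and run were (0.0122). No step among TGFß1, IL-6 and control, the last 3 in that order, passed the test.

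**Figure D1:**
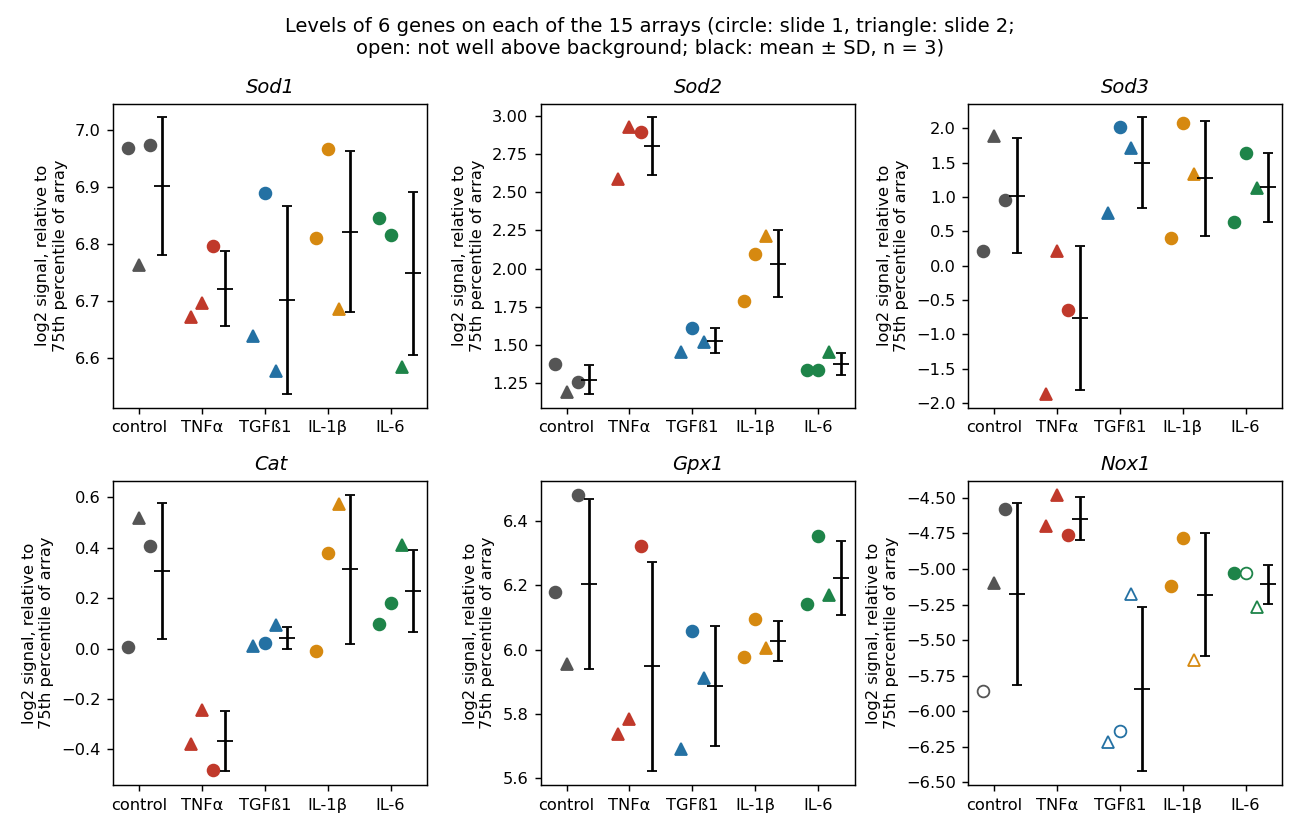
Levels of the 6 tested genes on each of the 15 arrays, with the log2 signal relative to the array's 75th percentile on the y axis (a scale of its own in each panel) and the 5 groups on the x axis; circles are slide 1, triangles slide 2, open symbols are not well above background, and the black bar is the group mean ± SD (n = 3). The 3 TNFα arrays of *Sod2* sit between 2.58 and 2.92, above all others, and those of *Cat* between -0.48 and -0.24, below all others.

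*Cat* encodes catalase, the peroxisomal enzyme that splits hydrogen peroxide into water and oxygen. Its level was 0.00, 0.52 and 0.40 on control 1, 6 and 11 and -0.38, -0.24 and -0.48 on TNFα 4, 9 and 14. The 3 TNFα arrays were below the lowest array of every other group. *Cat* fell by 0.68 ± 0.17 on the log2 scale with TNFα (SE, limma, q-value 0.0182), to 1.60-fold below control. The difference was -0.75 with slide and run as blocks (limma, q-value 0.00016). The call was lost when control 6, control 11, TNFα 4 or TNFα 14 was left out, with differences of -0.83 to -0.57 and q-values up to 0.0655 (limma), and with normexp background correction, where the difference of -0.55 was under the fold-change of 1.5. Against the other cytokines, the level with IL-1β was 0.68 higher than with TNFα (limma, q-value 0.0322) and that with IL-6 0.59 higher (0.0379, limma). Neither of these calls was firm: the first was lost without TNFα 4, 9 or 14 or IL-1β 10 or 15, with q-values up to 0.126 (limma), and the second without any single array of TNFα or IL-6, with q-values up to 0.118 (limma). For TNFα against TGFß1 the *Cat* difference was -0.41 (limma, q-value 0.129), a 1.33-fold change. It was not called, nor was it under any alternative.

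In the other groups *Cat* was not called against control. On TGFß1 2, 7 and 12 it was 0.01, 0.02 and 0.09, a difference of -0.27 (95% interval -0.63 to 0.09, limma q-value 0.269). That interval still holds a fall of 1.5-fold. Blocks for slide and run gave -0.34 with a q-value of 0.00771 (limma), a change of 1.26-fold and under the threshold of 1.5. The differences were 0.00 with IL-1β (-0.36 to 0.36) and -0.08 with IL-6 (-0.44 to 0.28). The lowest control array, control 1, was in the same run as the lowest IL-1β array and the lowest IL-6 array.

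*Sod3* encodes the dismutase that fibroblasts and muscle cells secrete to the matrix around them. Its level was 0.21, 1.88 and 0.96 on control 1, 6 and 11. On TNFα 4, 9 and 14 it was -1.86, 0.22 and -0.64. The groups overlapped in 1 array, TNFα 9 (0.22) against control 1 (0.21). The difference of -1.78 ± 0.59 (SE, limma, q-value 0.0692) was the largest in size of the 6 genes in any comparison with control, and it was not called. The spread within a group was also the largest of the 5 genes detected on all arrays, with SDs of 0.50 to 1.04 (n = 3).

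That spread of *Sod3* followed the runs of label numbers. In each of the 5 groups the array of the run 1 to 5 was the lowest and that of the run 6 to 10 the highest. The level with TGFß1 was 0.76, 2.02 and 1.72 on arrays 2, 7 and 12, with IL-1β 0.41, 2.07 and 1.34 on arrays 5, 10 and 15, and with IL-6 0.64, 1.64 and 1.14 on arrays 3, 8 and 13. Within the runs, TNFα minus control was -2.07, -1.67 and -1.60, lower in 3 of 3. Slide and run as blocks gave a difference of -1.80 ± 0.18 (SE, limma, q-value 8.65e-05), 3.49-fold lower and called; with slide alone it was not (q-value 0.064, limma). Leaving out TNFα 9, the highest array of its group, also gave a call without blocks (-2.27, limma q-value 0.0385), and leaving out TNFα 4 gave -1.23, the smallest difference.

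Among the treated groups *Sod3* was lowest with TNFα. It was 4.80-fold lower with TNFα than with TGFß1 (a difference of -2.26, limma, q-value 0.0202), with no overlap between the groups. This call was lost without TNFα 4, TNFα 14, TGFß1 7 or TGFß1 12 (q-values up to 0.0852, limma). IL-1β and IL-6 exceeded TNFα by 2.04 and 1.90 with q-values of 0.0669 and 0.0599 (limma), again without overlap, and both were called with slide and run as blocks (8.89e-05 and 6.25e-05, limma). Against control the differences were 0.48 with TGFß1 (95% interval -0.80 to 1.77), 0.26 with IL-1β (-1.03 to 1.54) and 0.12 with IL-6 (-1.16 to 1.41), intervals wide enough to hold changes of over 1.5-fold either way.

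**Figure D2:**
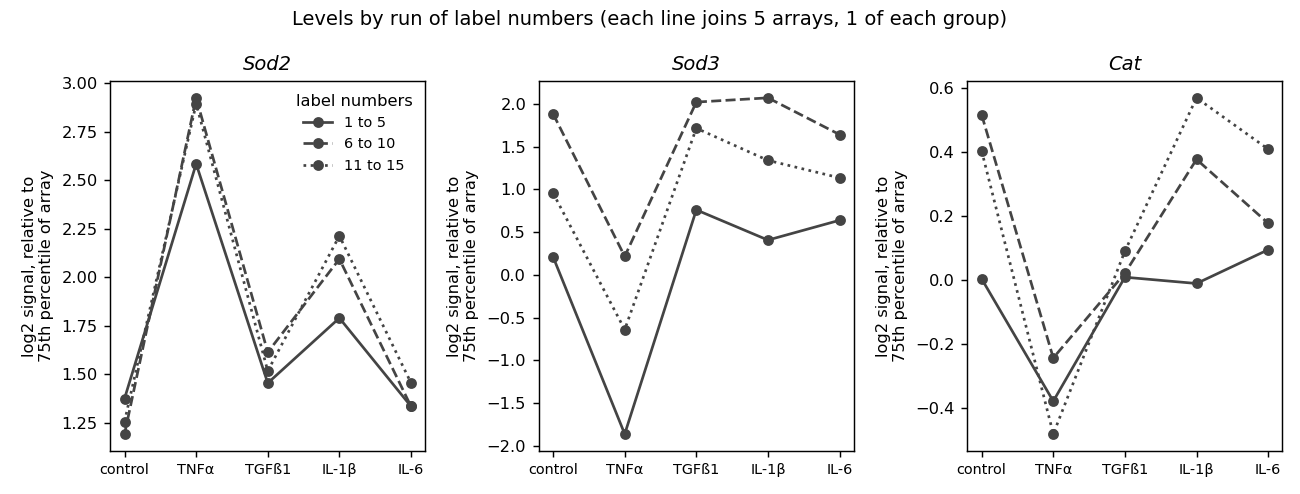
Levels of *Sod2*, *Sod3* and *Cat* (y axis, log2 signal relative to the array's 75th percentile) by group (x axis), with a line for each run of label numbers joining its 5 arrays. The 3 lines of *Sod3* keep their order in all groups and each drops at TNFα, by 1.60 to 2.07, whereas those of *Sod2* peak at TNFα.

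*Sod1*, the copper and zinc dismutase of the cytosol, and *Gpx1*, the glutathione peroxidase of cytosol and mitochondria, were bright on all arrays and moved little in the main fit. The level of *Sod1* was 6.97, 6.76 and 6.97 on control 1, 6 and 11 and 6.67, 6.70 and 6.80 on TNFα 4, 9 and 14. Over all 15 arrays it lay between 6.58 and 6.97, and every treated group overlapped control. Its differences from control were -0.18 with TNFα (95% interval -0.44 to 0.08), -0.20 with TGFß1 (-0.46 to 0.07), -0.08 with IL-1β (-0.34 to 0.18) and -0.15 with IL-6 (-0.42 to 0.11). In the main fit all 4 intervals lie within a change of 1.5-fold in either direction. The size of the difference depended on the processing. With TGFß1 it ranged from -0.41 to -0.13 under the alternatives that kept all arrays of both groups, with q-values down to 0.0249 (limma), and was called in none.

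*Gpx1* was 6.18, 5.95 and 6.48 on control 1, 6 and 11 and 5.74, 5.78 and 6.32 on TNFα 4, 9 and 14, where TNFα 14 lay above 2 of the control arrays. Its difference was -0.26 with TNFα (95% interval -0.64 to 0.12), -0.32 with TGFß1 (-0.70 to 0.06), -0.18 with IL-1β (-0.56 to 0.20) and 0.02 with IL-6 (-0.36 to 0.39). None was called, and the intervals for TNFα and TGFß1 still hold a fall of 1.5-fold. In the fit with slide and run as blocks the *Gpx1* difference with TGFß1 was -0.22 with a q-value of 0.00906 (limma), a change of 1.16-fold. Under the alternatives that kept all arrays of both groups, that difference ranged from -0.54 to -0.22 and was called in none.

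**Figure D3:**
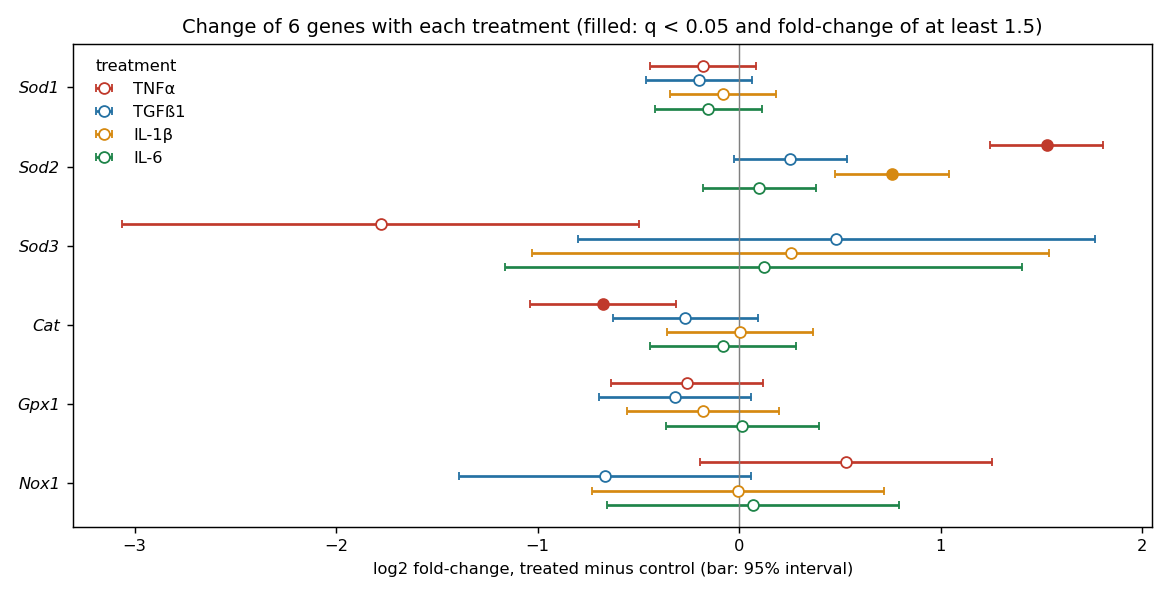
Change of each tested gene (y axis) with each treatment, as the log2 fold-change of treated minus control (x axis) with its 95% interval; filled symbols have a q-value under 0.05 and a fold-change of at least 1.5. The filled symbols are *Sod2* with TNFα (1.53) and IL-1β (0.76) and *Cat* with TNFα (-0.68), and the widest intervals are those of *Sod3*.

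With TGFß1, 0 of the 6 tested genes was called, where 7.17% of all tested probes were called higher and 10.8% lower, and 0 had an unadjusted p under 0.05 by limma. With IL-6, 0 was called and 0 had an unadjusted p under 0.05 by limma, where 0.0648% of all tested probes were called higher and 0% lower. The median difference of the 6 genes was -0.23 with TGFß1, -0.22 with TNFα, 0.00 with IL-1β and 0.04 with IL-6, beside 0.05, 0.04, 0.00 and 0.00 over all tested probes. Between treated groups, 3 of the 6 were called for TNFα against TGFß1 (*Sod2*, *Sod3* and *Nox1*), where 11.8% of probes were called in either direction. *Nox1* was among the 6 only because all 3 TNFα arrays detected it, whereas the other 5 were detected on all 15 arrays. For IL-1β against TNFα 2 were called (*Sod2* and *Cat*; 4.83% of probes), and the same 2 for IL-6 against TNFα (8.68%). None was called for IL-1β against TGFß1 (17% of probes), IL-6 against TGFß1 (16.4%) or IL-1β against IL-6 (0.419%), and 1 gene had an unadjusted p under 0.05 by limma in each of these, *Sod2*, *Nox1* and *Sod2*.

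Of the oxidase genes, *Nox1*, the catalytic subunit best known from the colon, was the only gene of the 4 with a probe well above background on any array. Its brighter probe was so on 8 of the 15 arrays: 2 of control, 3 of TNFα, 0 of TGFß1, 2 of IL-1β and 1 of IL-6. The level was -5.86, -5.10 and -4.58 on control 1, 6 and 11 and -4.69, -4.48 and -4.76 on TNFα 4, 9 and 14. TNFα 4 and 14 lay inside the range of control and TNFα 9 just above it, and the groups overlapped. The fitted difference was 0.53 (95% interval -0.19 to 1.26, limma q-value 0.348).

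On TGFß1 2, 7 and 12 the *Nox1* probe was at -6.22, -6.14 and -5.18, none well above background, so its level there is a bound. TNFα was at least 1.57-fold higher than TGFß1 by that bound, which sets each TGFß1 array at the dimmest probe well above background on it or at the *Nox1* signal if that was higher. The fit's q-value was 0.0279 (limma), but the probe entered the test through the TNFα group alone, the group where it is brightest, so this call supports nothing on its own. It did not hold under several settings either: the q-value was 0.755 with normexp background correction, 0.0651 in the fit of 9 arrays and up to 0.111 without TNFα 4, 9 or 14 or TGFß1 2 or 7 (limma). Control was at least 1.08-fold higher than TGFß1 by the same kind of bound, with a q-value of 0.17, which became 0.0404 without control 1, the dimmest control array (limma). The second *Nox1* probe was not well above background on any array, and its highest signal was on TNFα 4.

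*Nox4*, *Cyba* (p22phox, the membrane partner of NOX1, NOX2 and NOX4) and *Cybb* (NOX2, the phagocyte oxidase) each had 2 probes, and *Gpx3*, the secreted glutathione peroxidase, had 1. On all 15 arrays all 7 of these probes were not well above background, so no level and no fold-change can be given. On the log2 scale the *Nox4* signal closest to detection lay 1.49 below the dimmest probe well above background on its array, IL-1β 10. The 3 TGFß1 arrays gave -7.37, -7.38 and -7.48 for the brighter *Nox4* probe, inside the range of -7.77 to -7.00 of the control arrays. Of these 4 genes *Cyba* came closest to detection, 0.24 below that probe on control 6. The closest *Cybb* signal was 0.92 below it, on IL-1β 5, and the closest *Gpx3* signal 0.75 below it, on control 6.

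**Figure D4:**
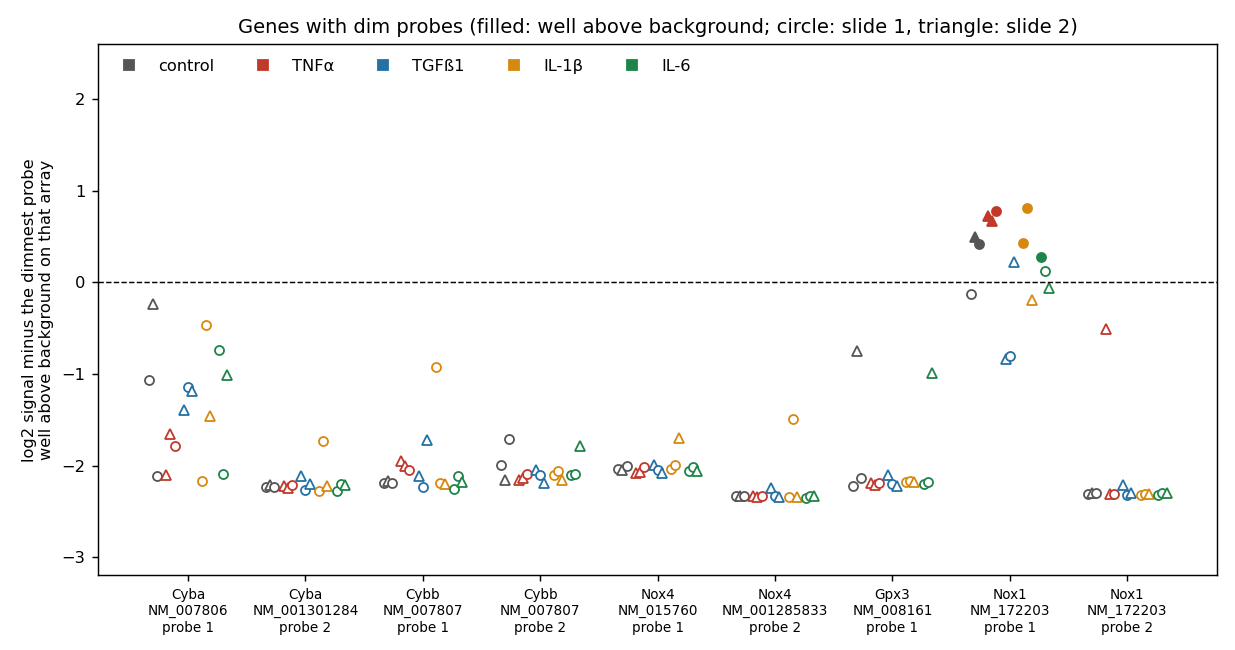
Signals of the 9 probes of genes that were not well above background on all arrays (x axis, with the RefSeq transcript each probe is annotated to), as log2 signal minus that of the dimmest probe well above background on the same array (y axis, dashed line at 0); colours are the groups, filled symbols are well above background. The brighter *Nox1* probe has filled symbols, 8 of 15, and all signals of *Cyba*, *Cybb*, *Nox4* and *Gpx3* lie below the line.

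The genes with the array pattern most like that of *Sod2*, over all 15 arrays and 13486 genes compared, were *Gch1*, which makes the cofactor tetrahydrobiopterin (Pearson's r = 0.968), and *Mmp13*, a collagenase (r = 0.963). For *Cat* they were *Aamdc* (r = 0.953) and *Lox*, lysyl oxidase, which crosslinks collagen (r = 0.938). These are the highest of many values over arrays that share groups, slides and scaling, and are given as a description.

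Of 41 further genes of oxidant production and removal, 40 had a named probe and 31 were tested. With TNFα 2 were called higher and 3 lower, where 4.12% and 6.06% of all tested probes were. With TGFß1 3 were called higher and 7 lower, where 7.17% and 10.8% of all probes were. With IL-1β 1 was called higher and 0 lower (0.245% and 0.00682% of all probes), and with IL-6 0 in either direction (0.0648% and 0%). The median difference of the 31 was 0.04 with TNFα and 0.10 with TGFß1, beside 0.04 and 0.05 over all tested probes. With slide and run as blocks the counts were 3 higher and 3 lower for TNFα and 4 higher and 4 lower for TGFß1. Of all 29333 probes, the same blocks called 2202 higher and 2311 lower for TNFα, and 2949 higher and 3626 lower for TGFß1.

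The oxidase partners and relatives were 15 genes, of which 7 were tested. With TNFα 2 were called lower and with TGFß1 3, beside 6.06% and 10.8% of all probes. None was called higher with either, beside 4.12% and 7.17%. These counts of lower genes, and those of the 31 genes above, include *Aox1*, which entered the test only through groups where it was brighter. *Noxo1*, the organizer subunit that NOX1 needs, was -2.18, -1.80 and -2.01 on control 1, 6 and 11. It was -3.08, -3.05 and -2.98 on TNFα 4, 9 and 14, and -3.96, -3.86 and -4.22 on TGFß1 2, 7 and 12. Neither treated group overlapped control: *Noxo1* was 2.05-fold lower with TNFα (limma, q-value 0.00614) and 4.05-fold lower with TGFß1 (4.13e-05, limma), and both calls held without any array.

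Xanthine dehydrogenase, *Xdh*, which can release superoxide in its oxidase form, was -2.69, -2.27 and -2.72 on TGFß1 2, 7 and 12 against 0.41, 0.88 and 0.12 on control 1, 6 and 11. It fell with TGFß1, to 8.17-fold below control (limma, q-value 2.98e-05), while with TNFα its difference was 0.10. Aldehyde oxidase, *Aox1*, was called lower with TNFα (limma, q-value 0.0342) and with TGFß1 (0.00677, limma). Its probe entered the test only through the control, IL-1β and IL-6 groups, where it was brighter, so these calls support nothing on their own. The probe was well above background on 2 of the 3 TNFα arrays and on 1 of the 3 TGFß1 arrays. With the other arrays set at the dimmest probe well above background on them, *Aox1* was at least 4.36-fold lower with TNFα and at least 4.46-fold lower with TGFß1. Its TNFα call was lost without control 6 or 11 or any TNFα array (q-values up to 0.117, limma).

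Among the 12 other peroxidases and peroxiredoxins, 10 were tested. *Prdx6*, a peroxiredoxin that also acts on phospholipids, rose to 1.86-fold with TNFα (limma, q-value 0.00631) and 2.36-fold with TGFß1 (0.00044, limma). *Prdx5* rose to 1.88-fold with TGFß1 (limma, q-value 0.0132), a call lost without control 6 (q-value 0.0532, limma). *Gpx7*, a peroxidase of the endoplasmic reticulum, fell with TNFα, to 1.93-fold below control (limma, q-value 0.0257), a call lost without control 1 or 6 or TNFα 4 or 14. *Gpx4* fell with TGFß1 by 0.59 on the log2 scale (limma, q-value 0.00973), a call lost with slide and run as blocks, where the difference was -0.52. The *Gpx4* call was also lost without control 11 or TGFß1 2 or 12.

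All 11 genes of thioredoxin and glutathione supply were tested. *Glrx*, glutaredoxin, was the gene of this list that changed with 3 treatments. Its level was 2.82, 2.73 and 2.65 on control 1, 6 and 11, and 4.35, 4.46 and 4.46 on TNFα 4, 9 and 14. On TGFß1 2, 7 and 12 it was 1.85, 2.15 and 2.03, and on IL-1β 5, 10 and 15 it was 3.63, 3.73 and 3.25. None of the 3 treated groups overlapped control: *Glrx* was 3.22-fold higher with TNFα (limma, q-value 1.19e-05), 1.75-fold higher with IL-1β (0.0371, limma) and 1.65-fold lower with TGFß1 (0.00287, limma). The IL-1β call of *Glrx* was lost without any of the control arrays, IL-1β 5 or IL-1β 10 (q-values up to 0.185, limma).

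*Txnrd3* was 1.85-fold higher with TGFß1 (limma, q-value 0.0322), a call lost without control 6 or any TGFß1 array. *Gclm*, the modifier subunit of the enzyme that limits glutathione synthesis, fell by 0.60 (limma, q-value 0.00627), and *Ccs*, the chaperone that loads copper into SOD1, fell by 0.64 with TGFß1 (limma, q-value 0.00745). Neither was called with slide and run as blocks. The *Gclm* call was also lost without control 1 or 11 or TGFß1 2 or 12, and the *Ccs* call without TGFß1 12. *Ccs* was 1 of 3 genes of copper supply, and the other 2, *Atox1* and *Atp7a*, were not called with any treatment.

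**Figure D5:**
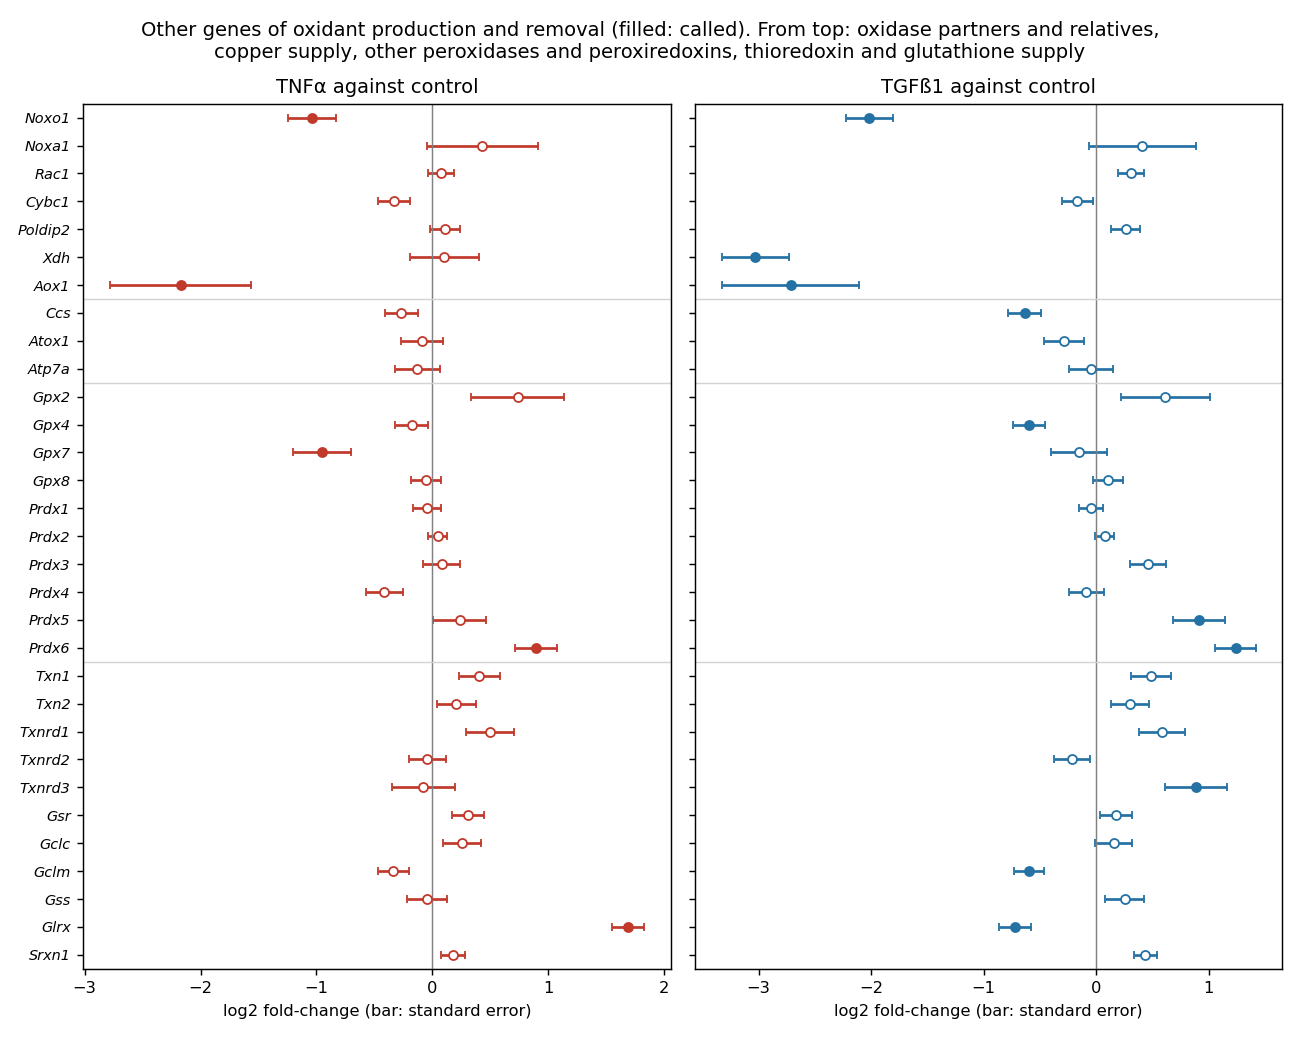
Log2 fold-change against control (x axis, bar: standard error) of the 31 further genes tested (y axis, grouped by list) with TNFα on the left and TGFß1 on the right; filled symbols were called. *Glrx* lies at 1.69 with TNFα and -0.72 with TGFß1, *Noxo1* lies below 0 with both, and with TGFß1 *Xdh* (-3.03) lies lowest and *Prdx6* (1.24) highest.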

How the data were processed

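Total RNA of 15 cultures was labelled with Cyanine 3 and hybridised to single-colour Agilent arrays, and the authors deposited scanner files made with Feature Extraction 10.7.3.1. Per the file headers, the processed signal is an intensity after background subtraction and spatial detrending; the deposited series table holds the same intensity values (largest difference 0). Non-control spots marked as non-uniform or population outliers were left out, log2 was taken, each array's 75th percentile over non-control spots was subtracted, and spots of a probe were averaged. A probe entered the test when all arrays of 1 or more groups marked it as well above background. R 4.3.3 and limma 3.58.1 were used, and the script was tested on simulated data. lmFit leaves out a missing value of a probe and fits its other arrays.

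The study names limma and a q-value under 0.05 in its methods and a fold-change of 1.5 in its results; 1 fit of all 15 arrays was used so that all groups share 1 estimate of the spread. A gene is represented by its probe with the highest mean signal. All 10 genes are named, and of other oxidant genes up to 3 called genes per direction and comparison with control; *Gpx4*, *Gclm*, *Ccs* and the called fibroblast markers lie outside that rule and were named after their values were seen. The 10 genes and all lists were chosen with earlier results of these data known. Slide came from the file headers and groups from the labels. The labels do not say which arrays share an experiment. After removal of group means and slide, 30 of 30 array pairs that share a run but not a group had an r over 0.1 across 29256 probes (0.114 to 0.671), and 2 of 60 pairs of different runs; without removal of slide these were 12 of 30 and 28 of 60. The runs are therefore a pairing read from label numbers and data. The study describes its control, TNFα and TGFß1 arrays as biological replicates from 3 experiments; for IL-1β and IL-6 this was not given in the sources used here, and p-values there measure the spread between arrays. Alternatives were slide, slide with run, 9 arrays without IL-1β and IL-6, the 75th percentile over detected probes, quantile normalization, normexp (offset 50), no filter, all spots, the mean over probes of a gene, and leaving out each array. Probe sequences were not used here, so cross-hybridisation of related genes was not examined. Of the listed genes, *Duox2* had no named probe, and 1 further gene is not reported here.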

Additional observations from a re-analysis of the deposited data

How the results depend on the processing

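The rise of *Sod2* with TNFα was called under all alternatives (differences of 1.49 to 1.53, and 1.46 to 1.63 without 1 array). Of 511 alternative values of 31 gene results, 37 lost a call of the main fit and 3 gained a call. None reversed a call, which needed a change of sign with a call in either fit, and not all of the 31 results were called. The sign changed in 26 values, with no call in either fit. The number of the 10 genes called changed as follows. With normexp background correction it was 1 for TNFα against control and 1 for IL-6 against TNFα, *Sod2* in both, since *Cat* fell under the fold-change of 1.5. With no filter on dim probes, where 56605 probes share the adjustment, it was 0 for IL-1β against control, 1 for IL-1β against TNFα and 1 for IL-6 against TNFα. For IL-1β against IL-6 it was 1, *Sod2*, with slide as a block, with slide and run, with the 75th percentile over probes detected on all arrays and with quantile normalization, and for IL-1β against TGFß1 it was 1 with the 75th percentile over detected probes. For TNFα against TGFß1 it was 2, without *Nox1*, in the fit of 9 arrays, with normexp and with no filter. With slide and run as blocks *Sod3* was also called, so that 3 genes were called for TNFα against control, IL-1β against TNFα and IL-6 against TNFα; the block is tied to label numbers. Over all 29333 probes the same blocks raised the calls for TNFα against control from 1209 higher and 1777 lower to 2202 and 2311. Those for IL-1β against TNFα rose from 912 and 504 to 1730 and 1343, and those for IL-6 against TNFα from 1523 and 1023 to 2170 and 1956. Against control, the blocks raised the calls for IL-1β from 72 higher and 2 lower to 249 and 71, and for IL-6 from 19 and 0 to 160 and 68. Leaving out 1 array at a time gave 1 to 3 genes called for TNFα against control, 0 to 1 for TGFß1, 0 to 1 for IL-1β and 0 to 0 for IL-6, 1 to 3 for TNFα against TGFß1, IL-1β against TNFα and IL-6 against TNFα, and 0 to 1 for IL-1β against TGFß1, IL-6 against TGFß1 and IL-1β against IL-6. The cause of these changes was not tested. *Nox1* is near the detection limit, and nothing can be said of a change in the 4 genes that were not well above background.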
